A study of Mus musculus with 8 samples.

Results

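The 38 genes described here encode components of T cell receptor (TCR) signalling. They comprise 25 genes whose products carry the signal or pass it on (activating), 10 whose products restrain it (dampening) and 3 for which both directions have been reported. They were chosen by name, with earlier results of these data known, and all 38 were found on a single row each among the 52636 rows of the deposited table. All 38 were also among the 12816 genes tested, for which at least 2 libraries had to reach a value of 60.

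The TCR has no enzymatic activity of its own. Its CD3 and zeta chains are phosphorylated by Src family kinases, which brings in the kinase ZAP-70, and adaptors phosphorylated by ZAP-70 then assemble the enzymes that start calcium and NFAT signalling, the Ras and MAP kinase cascade and, through PKC-theta, NF-kB. Phosphatases, ubiquitin ligases, diacylglycerol kinases and the surface receptors CD5 and CD6 limit these steps. Regulatory T cells (Tregs) depend on TCR signals for their development and for suppression, and CD27, a costimulatory receptor of the TNF receptor family, acts on T cells together with the TCR.

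RNA was measured in splenic CD4+ T cells of young adult mice, in 4 groups of 2 libraries, each from 200000 sorted cells. Conventional T cells (Tconvs, Foxp3-) and Tregs (Foxp3+) came from CD27+/- controls or from CD11c-Cd70tg;CD27+/- mice (CD70Tg), in which the CD11c promoter, active mainly in dendritic cells, drives constitutive expression of the CD27 ligand CD70; CD27 was thus heterozygous in both. The columns of the control groups are headed KO, the labels give WT and the study's methods CD27+/-, and these columns were taken as the controls. The comparison of CD70Tg with control cells addresses the effect of continuous CD27 engagement without deliberate immunization. In CD70Tg mice the study reports spontaneous pathology, altered T cell homeostasis and a larger share of effector Tregs. Effects of these and of CD27 engagement itself cannot be told apart here. CD8+ cells (by an antibody against CD8 beta), B, NK and dendritic cells, macrophages and granulocytes were removed magnetically. The remaining cells were stained for surface CD3 and CD4 and separated by a fluorescent Foxp3 reporter, and cells bearing CD25, a Treg marker, were depleted from the Tconvs only, so that products of the CD3 genes described here were part of the gate. The sources used here do not say whether the 2 libraries of a group came from separate mice, so that p-values measure the spread between these libraries only. Libraries are numbered in the order of the columns, which carries no pairing.

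The values are reads per gene scaled by the authors to 20 M per library and rounded up, and the limma model was fitted to log2(value + 5), with adjustment by the Benjamini-Hochberg method over all genes tested. From the size of the steps between low values, the libraries held about 6.94 to 33.3 M reads on genes in Tconvs and 1.91 to 4.57 M in Tregs. The lowest value of a member was 530, for *Themis* in a control Treg library, and the smallest number of reads behind a value was about 57, for *Themis* in the shallowest library (CD70Tg Treg library 1). Every member was therefore far above the value of 3 reads, which was at most 31.3, and depth did not limit detection of any member. *Foxp3*, the defining gene of Tregs, was at 19769 to 21367 in the Treg libraries and at 1039 to 1497 in the Tconv libraries, as labelled. In such bulk samples, fewer cells of a type and less RNA per cell cannot be told apart.

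In CD70Tg Tregs, 1 of the 38 genes was lower than in control Tregs, *Prkcq*, and 0 were higher. Among all genes tested, 3.46% were lower and 3.94% higher in this comparison. In CD70Tg Tconvs, 1 of the 38 was higher than in control Tconvs, *Ptpn22*, and 0 were lower, whereas 6.82% of all genes tested were higher and 1.99% lower. No member passed in either subset when an absolute log2 fold change over 1 was also required, a condition met by 3.60% of all genes tested in Tregs and 4.65% in Tconvs. At an unadjusted p under 0.05 there were 6 members in Tregs (15.8%, against 21.6% of all genes tested) and 7 in Tconvs (18.4%, against 19.1%). Log2 fold changes of the members ran from -0.51 to 0.35 in Tregs (median -0.06, against -0.05 over all genes tested) and from -0.36 to 0.54 in Tconvs (median 0.02, against 0.01). The 95% interval of the log2 fold change lay between -1 and 1 for all 38 genes in both subsets, and between -0.5 and 0.5 for 29 in each.

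Calls were made for each gene over all genes tested, so that separating the classes could not add one. The median log2 fold change was -0.07 for the 25 activating genes and -0.08 for the 10 dampening genes in Tregs, and 0.05 and -0.10 in Tconvs. Both CD70Tg libraries were above, or both below, the 2 controls for 24 members in Tregs (6 higher, 18 lower) and for 18 in Tconvs (11 higher, 7 lower). In Tregs these were 15.8% of members higher and 47.4% lower, against 22.5% and 31.2% of all genes tested, and in Tconvs 28.9% and 18.4%, against 23.7% and 21.4%. With 2 libraries against 2, an exact two-sided permutation test of a single gene cannot give a p below 0.33.

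**Figure D1:**
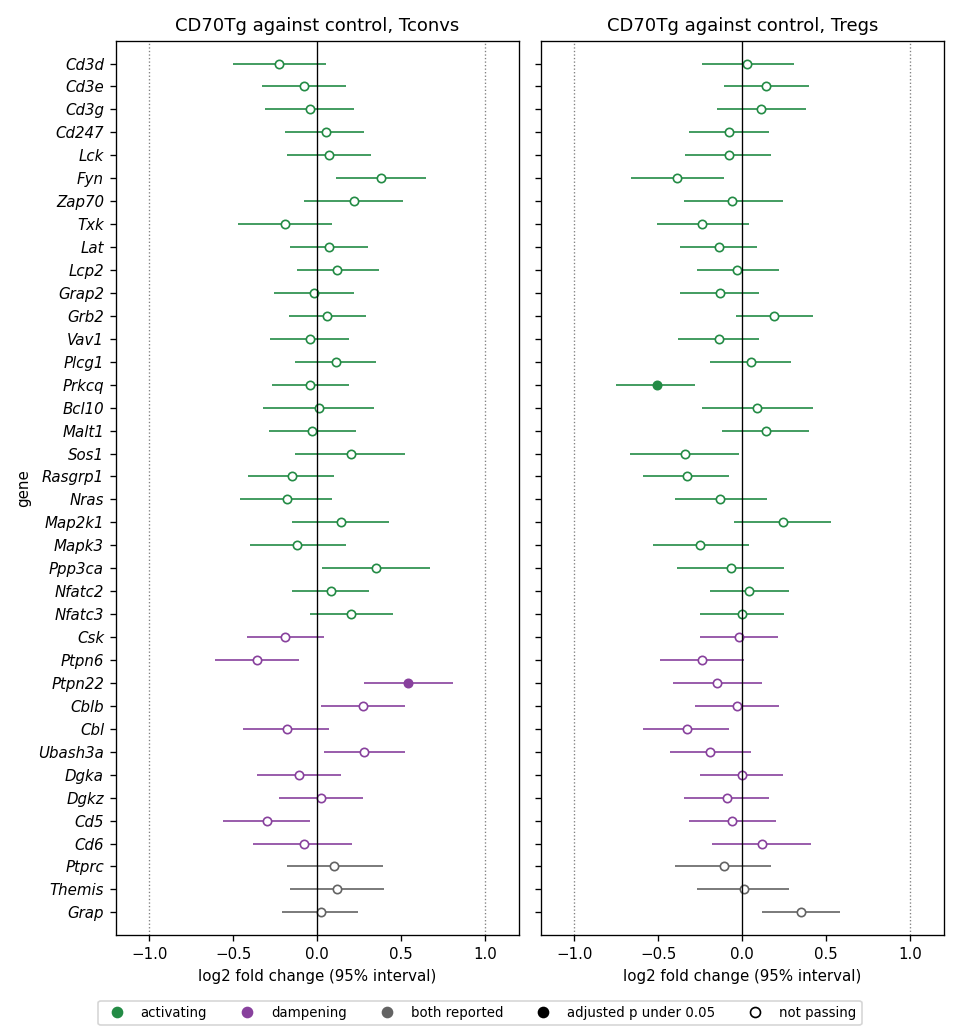
Log2 fold change of each of the 38 genes in CD70Tg against control cells, in Tconvs (left) and Tregs (right), with 95% intervals from limma (2 libraries per group); green is activating, purple dampening, grey both reported, and filled symbols have an adjusted p under 0.05. Only *Ptpn22* in Tconvs (0.54) and *Prkcq* in Tregs (-0.51) are filled, and every interval lies inside the dotted lines at -1 and 1.

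Differences between the subsets were more frequent. In controls, 14 of the 38 genes were lower and 6 higher in Tregs than in Tconvs, against 18.4% lower and 27.5% higher among all genes tested. In CD70Tg cells, 17 were lower and 4 higher, against 20.1% and 22.6%. The median log2 difference between Tregs and Tconvs was -0.15 over the members and 0.07 over all genes tested in controls, and -0.25 and -0.02 in CD70Tg cells. An absolute log2 difference over 1 was added to the test by 3 members in controls (*Themis*, *Cbl* and *Txk*) and by 4 in CD70Tg cells (the same 3 and *Ptpn22*), where 19.2% and 17.2% of all genes tested met this rule. By class, 10 of 25 activating genes were lower and 3 higher in control Tregs, as were 3 and 1 of the 10 dampening genes; in CD70Tg cells 12 and 1 activating and 4 and 1 dampening genes were lower and higher.

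**Figure D2:**
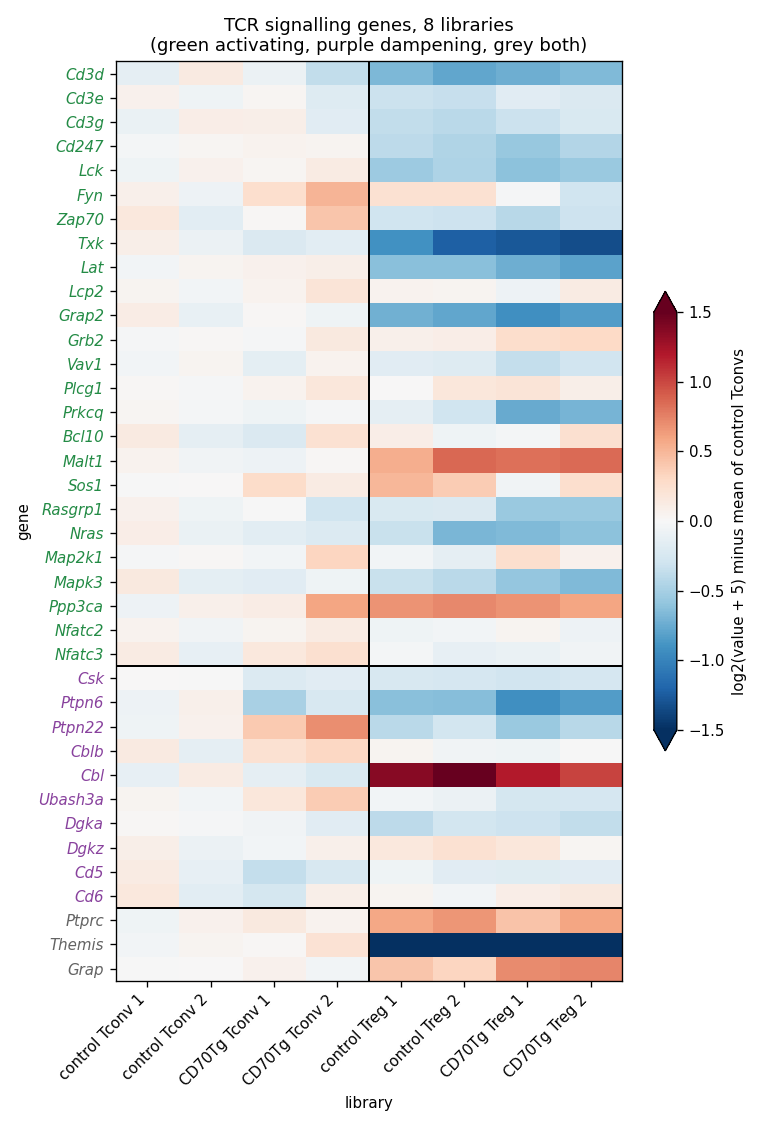
Log2(value + 5) of the 38 genes (rows) in the 8 libraries (columns), after subtracting the mean of the 2 control Tconv libraries; red is higher and blue lower than that mean, values past the ends of the colour bar take its end colours, and horizontal lines separate activating, dampening and both reported genes. The vertical line separates Tconvs from Tregs, and the strongest colours are those of *Themis*, *Txk* and *Cbl* in the Treg libraries.

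The signalling chains of the receptor, CD3 delta, epsilon and gamma and the zeta chain encoded by *Cd247*, were the only role of which every gene passed the test as lower in control Tregs. In CD70Tg mice 2 of these 4 genes passed as lower in Tregs, and all 4 proximal kinases did. *Cd3d* had values of 13644 and 16395 in control Tconvs, 14101 and 11608 in CD70Tg Tconvs, 9361 and 8687 in control Tregs and 8965 and 9466 in CD70Tg Tregs. No Treg library reached a Tconv library, and the log2 difference was -0.73 (SE 0.13, adjusted p = 0.00026) in controls and -0.47 (SE 0.13, adjusted p = 0.0079) in CD70Tg cells. In controls, the log2 difference of *Cd3e* was -0.34 (adjusted p = 0.031), that of *Cd3g* -0.39 (adjusted p = 0.019) and that of *Cd247* -0.42 (adjusted p = 0.0058). In CD70Tg cells *Cd247* was again lower (-0.55, adjusted p = 0.001), while *Cd3e* differed by -0.11 (adjusted p = 0.48) and *Cd3g* by -0.23 (adjusted p = 0.15). None of these genes passed the test of CD70Tg against control cells, with log2 fold changes of -0.08 to 0.14 in Tregs and -0.23 to 0.05 in Tconvs. The exons of *Cd247* share 60.3% of their length with other genes, mostly *Pou2f1* on the opposite strand, and whether reads were counted by strand is not given in the sources used here, so that its values are uncertain.

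Levels were also divided by the length of all annotated exons of a gene, which need not be that of the transcript expressed. Without this step *Cd3d* was below *Cd3e* and *Cd3g* in every Treg library (8687 to 9466, against 11384 to 12883 and 11192 to 12631). Per kb of annotated exon, *Cd3d* had the highest level of these chains in every library, an order that depends on these lengths. Its level was 6396 to 9033 per kb in Tconvs and 4786 to 5215 per kb in Tregs. *Cd3e* was at 3094 to 3716 per kb in Tconvs and at 2790 to 3158 in Tregs, so that the libraries of the subsets overlapped for this gene. The ratio of the *Cd3d* to the *Cd3e* level was 2.02 to 2.68 in Tconvs and 1.56 to 1.83 in Tregs. These ranges did not overlap, a difference that was not tested. For the other 2 ratios they did, with 1.14 to 1.43 in Tconvs and 1.15 to 1.27 in Tregs for *Cd3g* to *Cd3e*, and 0.655 to 0.825 and 0.528 to 0.670 for *Cd247* to *Cd3e*.

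**Figure D3:**
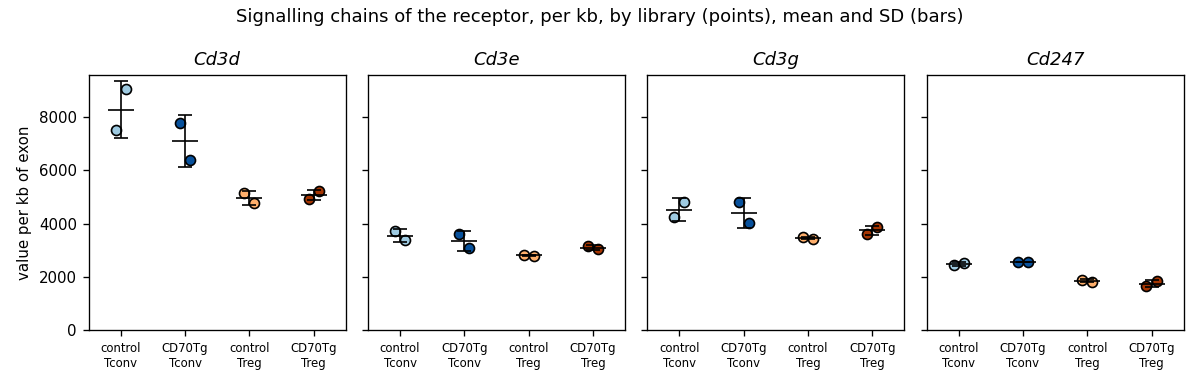
Level per kb of annotated exon of the 4 signalling chains of the receptor, by library (points) with the mean and SD of the 2 libraries of each group (bars). *Cd3d* lies at 4786 to 5215 per kb in all 4 Treg libraries, below its 4 Tconv libraries.

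Of the proximal kinases, *Lck*, which phosphorylates the receptor chains, had values of 20949 and 22851 in control Tconvs, 22243 and 23797 in CD70Tg Tconvs, 14989 and 15863 in control Tregs and 14304 and 14817 in CD70Tg Tregs. It was lower in Tregs of both genotypes, with log2 differences of -0.50 (SE 0.12, adjusted p = 0.0027) and -0.66 (SE 0.12, adjusted p = 0.00038), and its log2 fold change in CD70Tg cells was 0.07 in Tconvs, with an adjusted p of 0.83, and -0.08 in Tregs, where the adjusted p was 0.75. *Txk*, a Tec family kinase, was at 3031 and 2696 in control Tconvs, 2455 and 2556 in CD70Tg Tconvs, 1519 and 1222 in control Tregs and 1181 and 1131 in CD70Tg Tregs. It was 2.09-fold lower in control Tregs and 2.16-fold lower in CD70Tg Tregs (log2 differences -1.07 and -1.11, SE 0.13 each, adjusted p = 6.9e-06 and 6.1e-06). *Zap70* was at 7762 and 6213 in control Tconvs, 7028 and 9262 in CD70Tg Tconvs, 5644 and 5592 in control Tregs and 5204 and 5590 in CD70Tg Tregs. It was lower in Tregs than in Tconvs of CD70Tg mice (-0.58, SE 0.14, adjusted p = 0.0033), and in controls the difference was -0.31 (adjusted p = 0.083).

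*Fyn*, the second Src family kinase of the receptor, was the member with the largest difference between the responses of the subsets. Its values were 8701 and 7776 in control and 9773 and 11719 in CD70Tg Tconvs, and 9652 and 9633 in control and 8129 and 6699 in CD70Tg Tregs. Both CD70Tg libraries thus lay above the controls in Tconvs and below them in Tregs. Neither change passed the test, with a log2 fold change of 0.38 (SE 0.13, adjusted p = 0.085) in Tconvs and -0.39 (SE 0.13, adjusted p = 0.082) in Tregs, and the difference between them, -0.77 (SE 0.18), had an adjusted p of 0.06. The log2 fold change in Tconvs was 0.51 without CD70Tg Tconv library 1 and 0.25 without CD70Tg Tconv library 2. In Tregs it was -0.53 without CD70Tg Treg library 1 and -0.25 without CD70Tg Treg library 2. Over the alternative settings, the adjusted p of the difference between the subsets' responses ran from 0.012 to 0.37. *Fyn* was lower in Tregs than in Tconvs of CD70Tg mice (-0.54, SE 0.13, adjusted p = 0.0034), and the difference was 0.23 in controls (adjusted p = 0.16).

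Among the adaptors, *Lat* and *Grap2* were lower in Tregs. *Lat*, the membrane scaffold on which the signalling complex forms, was at 12846 and 13704 in control Tconvs, 13827 and 14069 in CD70Tg Tconvs, 8623 and 8565 in control Tregs and 7952 and 7618 in CD70Tg Tregs. *Grap2*, which encodes GADS, the link between LAT and SLP-76, was at 6997 and 6029, 6561 and 6236, 3950 and 3788, and 3417 and 3632 in the same groups. For both genes every Treg library was below every Tconv library. The log2 difference of *Lat* was -0.63 in controls and -0.84 in CD70Tg cells (adjusted p = 0.00023 and 1.8e-05), and that of *Grap2* was -0.75 and -0.86 (adjusted p = 6.1e-05 and 2e-05, SE 0.11 for all 4 values). *Lcp2* (SLP-76), *Grb2* and *Vav1*, a guanine nucleotide exchange factor that also acts as a scaffold, did not pass either comparison of the subsets, with log2 differences between -0.28 and 0.22, although *Vav1* was lower in Tregs of both genotypes with median-of-ratios factors (adjusted p = 0.049 and 0.042) and *Grb2* higher in CD70Tg Tregs with upper-quartile factors (adjusted p = 0.049). No adaptor passed the test of the CD70Tg response, and log2 fold changes were -0.14 to 0.19 in Tregs and -0.04 to 0.12 in Tconvs.

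The only activating gene called in a CD70Tg response was *Prkcq*, which encodes PKC-theta, the kinase that links the receptor to NF-kB. The gene lies on chromosome 2 (11172108 to 11301222, plus strand, mm10). Control Tregs had values of 8613 and 7680 and CD70Tg Tregs 5590 and 5824, while the Tconv libraries stood at 9630 and 9241 in controls and at 9036 and 9312 in CD70Tg mice. CD70Tg Tregs were thus below all other libraries, and the other 6 lay within 7680 to 9630. *Prkcq* fell in CD70Tg Tregs by 0.51 on the log2 scale (SE 0.11, adjusted p = 0.0093), to 0.70 of its control level, and its log2 fold change in Tconvs was -0.04 (SE 0.11, adjusted p = 0.91). The difference between these responses was -0.47 (95% interval -0.80 to -0.14) with an adjusted p of 0.23, so that a difference between the subsets was not shown. *Prkcq* was lower in Tregs than in Tconvs of CD70Tg mice (-0.68, adjusted p = 0.00014), and the difference in controls was -0.21 (adjusted p = 0.13).

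*Malt1*, a protease gene of the same branch, was higher in Tregs. Its values were 2322 and 2162 in control Tconvs, 2133 and 2271 in CD70Tg Tconvs, 3266 and 4068 in control Tregs and 3992 and 4051 in CD70Tg Tregs. The log2 difference was 0.70 in controls (SE 0.12, adjusted p = 0.00023) and 0.87 in CD70Tg cells (SE 0.12, adjusted p = 4.1e-05). *Bcl10*, an adaptor gene of the branch, and *Plcg1*, the phospholipase that makes diacylglycerol and inositol trisphosphate, did not pass any of the comparisons, with log2 differences of 0.02 to 0.10 between the subsets. Within this branch, *Malt1* and *Prkcq* thus differed between the subsets in opposite directions in CD70Tg mice.

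In the Ras and MAP kinase branch, *Nras* and *Mapk3* (ERK1) were lower in Tregs of both genotypes. *Mapk3* was at 1705 and 1402 in control Tconvs, 1369 and 1481 in CD70Tg Tconvs, 1223 and 1170 in control Tregs and 1035 and 979 in CD70Tg Tregs, with log2 differences of -0.37 (adjusted p = 0.034) and -0.50 (adjusted p = 0.0073). For *Nras* they were -0.51 (adjusted p = 0.0046) and -0.46 (adjusted p = 0.01). *Sos1*, an exchange factor for Ras, had values of 691 and 701 in control Tconvs, 845 and 757 in CD70Tg Tconvs, 981 and 911 in control Tregs and 669 and 827 in CD70Tg Tregs, and was higher in control Tregs than in control Tconvs (0.44, SE 0.15, adjusted p = 0.028). *Rasgrp1*, the exchange factor that diacylglycerol recruits, was at 9697 and 8814, 9223 and 7502, 7900 and 7930, and 6301 and 6280 in the same groups. It was lower in Tregs than in Tconvs of CD70Tg mice (-0.40, SE 0.12, adjusted p = 0.013). In Tregs, its CD70Tg libraries were below the controls, but the log2 fold change of -0.33 did not pass (adjusted p = 0.11), nor did that of *Sos1* (-0.34, adjusted p = 0.2). *Map2k1* (MEK1), at 1577 and 1675 in control Tregs and 1800 and 2048 in CD70Tg Tregs, had a log2 fold change of 0.24 (adjusted p = 0.33), and in Tconvs, at 1706 and 1744 in controls and 1677 and 2159 in CD70Tg mice, its log2 fold change was 0.14 (adjusted p = 0.67).

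Of the calcium and NFAT genes, *Ppp3ca*, the catalytic subunit alpha of calcineurin, was higher in control Tregs than in control Tconvs (0.70, SE 0.15, adjusted p = 0.0014). It stood at 946 and 1053 in control Tconvs, 1078 and 1511 in CD70Tg Tconvs, 1597 and 1642 in control Tregs and 1589 and 1501 in CD70Tg Tregs. In CD70Tg mice the libraries of the subsets overlapped, and the difference was 0.27 (adjusted p = 0.16). The log2 fold change of *Ppp3ca* in Tconvs was 0.35 (SE 0.15, adjusted p = 0.2). Over the alternative settings the difference ran from 0.03 to 0.52 and the fold change from 0.11 to 0.60. Their highest values came without CD70Tg Tconv library 2 and library 1, respectively. *Nfatc3* was at 7315 and 6159 in control and 7483 and 7961 in CD70Tg Tconvs, a log2 fold change of 0.20 (adjusted p = 0.39), and at 6143 to 6595 in the 4 Treg libraries. *Nfatc2* did not pass any comparison and its 8 values lay between 2855 and 3253.

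The only dampening gene called in a CD70Tg response was *Ptpn22*, which encodes the phosphatase PEP that acts on Lck and ZAP-70 together with the kinase CSK. It lies on chromosome 3 (103859795 to 103912247, plus strand, mm10). Its values were 3986 and 4374 in control Tconvs and 5478 and 6759 in CD70Tg Tconvs, against 3150 and 3442 in control Tregs and 2832 and 3127 in CD70Tg Tregs. The CD70Tg Tconv libraries were the highest of the 8, and the gene rose in Tconvs by a log2 fold change of 0.54 (SE 0.12, adjusted p = 0.0093), or 1.46-fold. In Tregs the log2 fold change was -0.15 (SE 0.12, adjusted p = 0.55), and the difference between the subsets, -0.69 (95% interval -1.06 to -0.32), had an adjusted p of 0.084, which ran from 0.012 to 0.37 over the alternative settings. *Ptpn22* was lower in Tregs than in Tconvs in controls (-0.34, SE 0.12, adjusted p = 0.034) and in CD70Tg mice (-1.03, SE 0.12, adjusted p = 8.2e-06).

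The other phosphatase of this group, *Ptpn6* (SHP-1), was lower in Tregs in both genotypes. It was at 5493 and 6152 in control Tconvs, 4161 and 4928 in CD70Tg Tconvs, 3761 and 3718 in control Tregs and 3072 and 3263 in CD70Tg Tregs. The log2 difference between the subsets was -0.64 in controls (adjusted p = 0.00038) and -0.52 in CD70Tg mice (adjusted p = 0.0024, SE 0.12 for both). In each subset its CD70Tg libraries were below the controls, with log2 fold changes that did not pass (-0.36 with an adjusted p of 0.072 in Tconvs, -0.24 with 0.25 in Tregs). *Ptpn6* and *Ptpn22*, both phosphatases of the proximal kinases, thus lay on opposite sides of their controls in CD70Tg Tconvs. *Csk*, whose kinase switches Lck off, did not pass any comparison with the scaling and test used here, but was lower in Tregs of controls with median-of-ratios factors (-0.32, adjusted p = 0.035) and with limma-voom (-0.24, adjusted p = 0.031). It had values of 11951 and 11836 in control and 10289 and 10586 in CD70Tg Tconvs and of 9759 to 10050 in Tregs.

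Among the genes of ubiquitin ligases and their partner, *Cbl* stood apart as the member most increased in Tregs. This gene of the ligase c-CBL, on chromosome 9 (44142976 to 44234049, minus strand, mm10), was at 3841 and 4579 in control Tconvs, 3815 and 3574 in CD70Tg Tconvs, 10850 and 11831 in control Tregs and 9561 and 8466 in CD70Tg Tregs. It was 2.70-fold higher in control Tregs (log2 1.43, SE 0.12, adjusted p = 1.1e-07) and 2.43-fold higher in CD70Tg Tregs (log2 1.28, SE 0.12, adjusted p = 5.4e-07). Its relative *Cblb*, which encodes a ligase that restrains T cells lacking CD28 costimulation, was at 3615 and 2980, 3855 and 4072, 3368 and 3166, and 3145 and 3263 in the same groups, with a log2 difference of -0.01 in controls (adjusted p = 0.97) and -0.31 in CD70Tg mice (adjusted p = 0.047). *Ubash3a*, whose product STS-2 binds ubiquitin and CBL proteins, was at 3475 and 3273, 3801 and 4398, 3266 and 3175, and 2811 and 2828, and was lower in Tregs of CD70Tg mice (-0.54, SE 0.11, adjusted p = 0.0014). The log2 fold changes of *Cbl*, *Cblb* and *Ubash3a* in CD70Tg cells were -0.33, -0.03 and -0.19 in Tregs and -0.18, 0.27 and 0.28 in Tconvs, and none passed.

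The diacylglycerol kinases remove the second messenger that recruits RASGRP1 and PKC-theta. *Dgka* was lower in control Tregs than in control Tconvs (-0.33, SE 0.12, adjusted p = 0.028), at 13340 and 14541 against 17826 and 17285. *Dgkz* did not pass either comparison of the subsets (0.20 in controls, adjusted p = 0.2). For the surface receptors, *Cd5* was at 16336 and 13702 in control and 11637 and 12645 in CD70Tg Tconvs, with a log2 fold change of -0.30 (SE 0.12, adjusted p = 0.17), and at 13155 to 14261 in the 4 Treg libraries. *Cd6*, a relative of *Cd5* on the same chromosome, had values of 11540 to 15434 in Tconvs and 13468 to 15290 in Tregs, and no difference between the subsets passed for either receptor (-0.12 and 0.00 in controls, 0.12 and 0.21 in CD70Tg mice).

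All 3 genes with both directions reported differed between the subsets. *Themis*, which encodes a T cell adaptor needed for thymic selection that binds GRB2 and SHP-1, had the largest difference of all members. It lies on chromosome 10 (28668360 to 28883818, plus strand, mm10). Its values were 3644 and 3838 in control Tconvs and 3801 and 4338 in CD70Tg Tconvs, and 631 and 530 in control Tregs and 596 and 566 in CD70Tg Tregs. It was 6.42-fold lower in control Tregs (log2 -2.68, SE 0.13, adjusted p = 2.6e-10) and 6.94-fold lower in CD70Tg Tregs (log2 -2.79, SE 0.13, adjusted p = 2.3e-10), and its log2 fold change with CD70 was 0.01 in Tregs (95% interval -0.27 to 0.28) and 0.12 in Tconvs (-0.16 to 0.40). *Ptprc* (CD45), the phosphatase that both primes and limits Lck, was at 27163 and 29578 in control Tconvs, 31393 and 29473 in CD70Tg Tconvs, 42371 and 44721 in control Tregs and 37991 and 42595 in CD70Tg Tregs. It was higher in Tregs (0.62 in controls, adjusted p = 0.0014; 0.40 in CD70Tg mice, adjusted p = 0.024; SE 0.13 for both), but the call in CD70Tg mice was lost with median-of-ratios (0.41, adjusted p = 0.11) and upper-quartile factors (0.44, adjusted p = 0.083), and the table gives no values for its splice forms. *Grap*, a small adaptor related to *Grb2*, was at 4937 and 4962, 5189 and 4826, 6614 and 6209, and 8098 and 8227 in the same groups, and was higher in Tregs by 0.37 in controls and 0.71 in CD70Tg mice (adjusted p = 0.0099 and 8.1e-05, SE 0.11 for both). Its 2 CD70Tg Treg libraries were the highest of the 8, but the log2 fold change in Tregs, 0.35 (SE 0.11), had an adjusted p of 0.06.

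**Figure D4:**
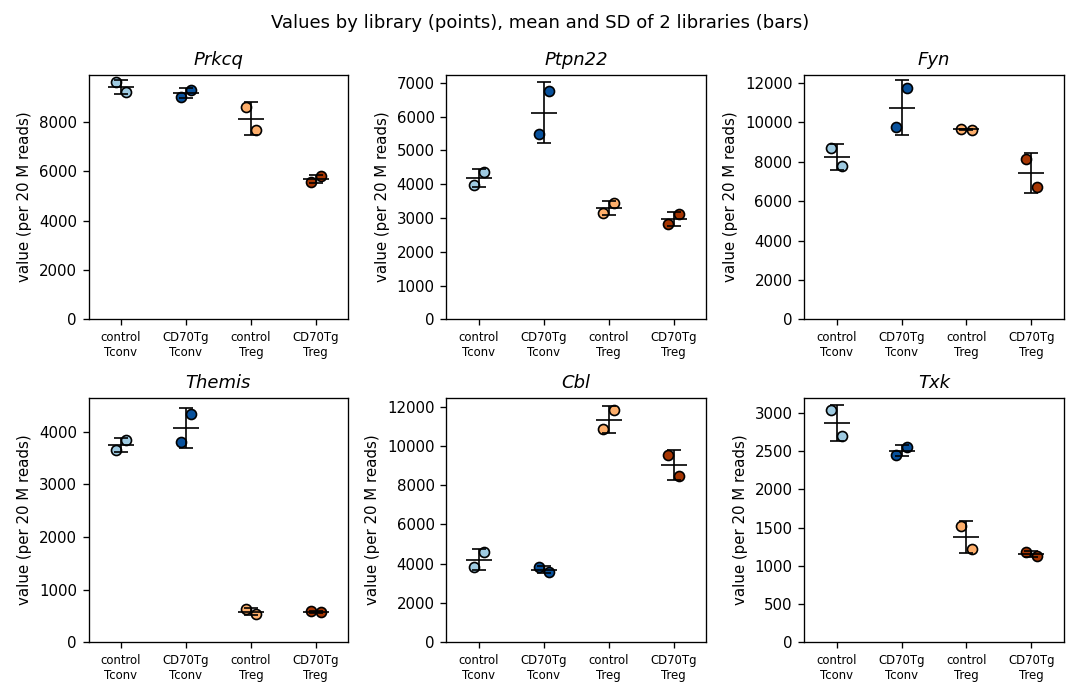
Values of 6 members by library (points, reads scaled to 20 M) with the mean and SD of the 2 libraries of each group (bars); each panel has its own axis, starting at 0. *Prkcq* is at 5590 and 5824 in CD70Tg Tregs, *Ptpn22* at 5478 and 6759 in CD70Tg Tconvs, *Fyn* lies above its controls in Tconvs and below them in Tregs, and *Themis*, *Cbl* and *Txk* separate Tregs from Tconvs.

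Across the comparisons of the subsets, 15 members passed in both genotypes, all 15 with the same sign. They made up 75.0% of the 20 that passed in controls and 71.4% of the 21 that passed in CD70Tg cells. Over all genes tested, the shares were 71.6% and 76.9%, and 99.3% of the genes passing in both had the same sign. *Cd3e*, *Cd3g*, *Dgka*, *Ppp3ca* and *Sos1* passed in controls only, and *Cblb*, *Fyn*, *Prkcq*, *Rasgrp1*, *Ubash3a* and *Zap70* in CD70Tg cells only, while 12 passed in neither. These were 13.2%, 15.8% and 31.6% of the members, against 13.0%, 9.85% and 44.3% of all genes tested. With median-of-ratios factors, *Zap70* (-0.38, adjusted p = 0.018) and *Prkcq* (-0.29, adjusted p = 0.049) also passed in controls, and *Zap70* did so with upper-quartile factors (-0.34, adjusted p = 0.028). The difference between these 2 comparisons is the same quantity as the difference between the CD70Tg responses of the subsets, and it passed the test for 0 of the 38 members, against 1.02% of all genes tested. An unadjusted p under 0.05 was found for 6 members in that test (15.8%, against 10.7% of all genes tested). The calls in a single genotype are therefore not shown to differ between genotypes.

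**Figure D5:**
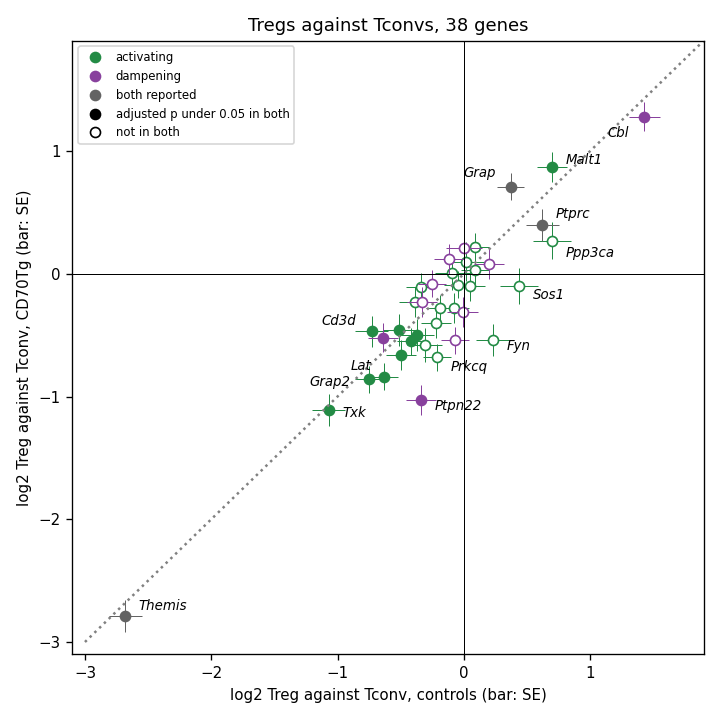
Log2 difference between Tregs and Tconvs in controls (x axis) and in CD70Tg mice (y axis) for the 38 genes, with standard errors from limma (bars, 2 libraries per group); filled symbols passed in both genotypes, and the dotted line marks equal differences. *Themis* lies at -2.68 and -2.79 and *Cbl* at 1.43 and 1.28, and *Ptpn22*, *Fyn* and *Prkcq* lie below the line.

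Several calls were lost, and others gained, when 1 library was left out. Among the gains without CD70Tg Tconv library 2 were the subset differences of *Cd3g* (-0.36), *Cd6* (0.38) and *Ppp3ca* (0.52) in CD70Tg mice. Without CD70Tg Tconv library 1 they included *Fyn* (0.51), *Ppp3ca* (0.60) and *Ubash3a* (0.38) in Tconvs. *Fyn* (-0.39), *Rasgrp1* (-0.33) and *Grap* (0.35) were gained in Tregs without CD70Tg Tconv library 1 or 2. Such a fit rests on fewer libraries, and over the 47 losses of a member's call the log2 value moved by a median of 0.04 and at most 0.17. The call of *Prkcq* in Tregs was lost without control Treg library 1 (log2 fold change -0.43, adjusted p = 0.18), CD70Tg Treg library 1 (-0.48, adjusted p = 0.1) or CD70Tg Treg library 2 (-0.54, adjusted p = 0.056). The call of *Ptpn22* in Tconvs was lost without control Tconv library 1 (0.48, adjusted p = 0.069) or CD70Tg Tconv library 2 (0.39, adjusted p = 0.11). The stricter thresholds apply to the main fit and are left aside here. Between the subsets, 11 of the 20 calls in controls and 14 of the 21 in CD70Tg cells passed in every alternative fit. *Txk*, *Lat*, *Grap2*, *Lck*, *Ptpn6*, *Themis*, *Cbl* and *Malt1* did so in both genotypes. The share of all genes tested that did so was not counted. The calls of *Dgka* and *Sos1* in controls were lost without any 1 of the 4 control libraries (adjusted p from 0.066 to 0.2), and that of *Cblb* in CD70Tg mice was lost without any 1 of the 4 CD70Tg libraries (adjusted p from 0.055 to 0.2) and without either control Treg library (0.071 and 0.072). In controls, *Cd3e* was lost without control Tconv library 1 or any 1 of the 4 Treg libraries (log2 difference -0.34 to -0.27, adjusted p from 0.051 to 0.17), *Cd3g* without control Tconv library 2 or either control Treg library (0.074 to 0.14), *Mapk3* without control Tconv library 1 or either control Treg library (0.094 to 0.29), *Ptpn22* without control Tconv library 2 or either control Treg library (0.074 to 0.2), *Cd247* and *Nras* without control Treg library 2 (0.066 and 0.12) and *Grap* without control Treg library 1 (0.094). In CD70Tg mice, *Ptprc* was lost without CD70Tg Tconv library 2 or either CD70Tg Treg library (0.055 to 0.18), *Rasgrp1* without CD70Tg Tconv library 1 or either CD70Tg Treg library (0.069 to 0.098), *Cd3d* without CD70Tg library 1 of either subset (0.059 and 0.074), *Nras* without CD70Tg Treg library 1 (0.07) and *Fyn* and *Mapk3* without CD70Tg Treg library 2 (0.071 and 0.052).

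Sequence before the transcription start was available here from RefSeq (GRCm38.p6) for 33 of the 38 genes, with 48 starts. *Mapk3*, *Grap*, *Cd6*, *Malt1* and *Ppp3ca* had no entry in the set of starts used, which does not mean that RefSeq lacks them. The sequences of *Themis* and *Cbl* are shown because these genes had the largest differences between the subsets among the members, in opposite directions, and that of *Ptpn22* because it is the member that rose in Tconvs. They read 5' to 3' on the strand of the gene and end at the start or, for *Cbl*, at its first annotated exon base. The window of *Ptpn22* precedes the second of its 2 starts, since that before the first held none of the motifs searched, and lies in an intron of the longer transcripts, and capitals mark a match to TTCNNNGAA, the interferon-gamma activated site bound by STAT factors, whose first base is at position -232 from the start.
Themis chr10:28668110-28668359 (plus strand): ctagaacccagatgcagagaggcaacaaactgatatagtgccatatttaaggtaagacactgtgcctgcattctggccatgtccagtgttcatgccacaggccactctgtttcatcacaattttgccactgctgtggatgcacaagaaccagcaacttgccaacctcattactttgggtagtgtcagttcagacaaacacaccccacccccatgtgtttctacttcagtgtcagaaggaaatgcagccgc
Cbl chr9:44234050-44234296 (minus strand): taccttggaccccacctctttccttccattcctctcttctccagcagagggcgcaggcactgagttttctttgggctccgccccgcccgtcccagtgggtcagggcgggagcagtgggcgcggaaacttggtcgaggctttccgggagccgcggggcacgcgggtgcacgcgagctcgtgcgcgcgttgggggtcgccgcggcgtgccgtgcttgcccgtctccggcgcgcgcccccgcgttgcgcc
Ptpn22 chr3:103860027-103860276 (plus strand): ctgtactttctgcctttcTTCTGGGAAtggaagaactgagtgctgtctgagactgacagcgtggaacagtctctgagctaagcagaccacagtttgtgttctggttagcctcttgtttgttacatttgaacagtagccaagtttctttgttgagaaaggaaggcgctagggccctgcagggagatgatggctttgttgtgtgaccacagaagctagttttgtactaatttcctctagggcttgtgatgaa

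In the 250 bases before each start, searched on both strands, TTCNNNGAA was found for *Ptpn22*, *Cd3d* and *Rasgrp1*, 6.2% of the 48 starts of members against 7.0% of all 32851 starts in the table. The forkhead motif TGTTTAC, bound by Foxp3 among others, was before starts of *Nfatc2*, *Nras*, *Nfatc3* and *Grap2* (8.3%, against 3.2% of all starts). The RUNX motif TGTGGTT was before starts of *Lck* and *Txk* (4.2% against 4.4%), the T-box motif AGGTGTG, of the family of Eomes and T-bet, before those of *Plcg1*, *Cd3d* and *Csk* (6.2% against 5.1%), and the ETS motif CCGGAAG before 0 of the 48 starts (6.9% of all starts). *Cd3d* held 2 of these motifs, which did not overlap. A match describes letters in these windows and not the binding of a factor. *Themis*, *Cbl* and *Prkcq*, 3 of the genes on which the results turn, held none of the 5 motifs.

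A further 58 genes of the same pathway, 38 activating and 20 dampening, were listed apart from the members. In CD70Tg Tregs, 3 of these 58 were higher and 6 lower than in controls, and in CD70Tg Tconvs 6 were higher and 3 lower, against 0 and 1, and 1 and 0, of the 38 members. These were 5.17% and 10.3% of the 58 in Tregs (3.94% and 3.46% of all genes tested) and 10.3% and 5.17% in Tconvs (6.82% and 1.99%). With an absolute log2 fold change over 1, the only call was that of *Nfkb1*, the NF-kB subunit p105 and p50, in Tconvs. It was at 3517 and 3081 in control and 6163 and 7295 in CD70Tg Tconvs (log2 fold change 1.03, SE 0.12, adjusted p = 2.1e-05), and at 6522 and 7124 in control and 9174 and 9238 in CD70Tg Tregs (0.43, SE 0.12, adjusted p = 0.037). *Nfkb1*, downstream of PKC-theta, passed in both subsets, but its call in Tregs was lost without control Treg library 1 (adjusted p = 0.32) or 2 (0.1), without CD70Tg Treg library 1 (0.17) or 2 (0.16), without a minimum value (0.12) and with limma-voom (0.089). Between the subsets, 15 of the 58 were lower and 18 higher in control Tregs, and 19 lower and 16 higher in CD70Tg Tregs. The shares were 25.9% and 31.0% in controls (18.4% and 27.5% of all genes tested) and 32.8% and 27.6% in CD70Tg mice (20.1% and 22.6%).

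Markers of other cell types were summed in each library. The summed values of 7 B cell markers were 73 to 190 in Tconvs and 264 to 515 in Tregs, those of 6 dendritic cell markers 72 to 345 and 99 to 410, and those of 5 NK cell markers 84 to 451 and 0 to 64, with *Ncr1*, the defining NK marker, listed at 0 in 7 of the 8 libraries. Of 7 macrophage or monocyte markers the sums were 1138 to 1550 in Tconvs and 2799 to 3023 in Tregs, and of 4 erythroid markers 609 to 1067 and 424 to 2656. *Cd8a*, a marker of CD8 T cells, which the depletion was meant to remove and which use the same receptor and signalling genes, was at 17 and 28 in control and 508 and 608 in CD70Tg Tconvs, and at 25 and 71 in control and 262 and 223 in CD70Tg Tregs, and *Cd8b1* at 703 and 653, 1055 and 982, 292 and 346, and 398 and 408 in the same groups. Their summed values moved with the rise of *Ptpn22* in Tconvs and the fall of *Prkcq* in Tregs, and their part in these results was not tested. *Klrb1c*, listed with the NK cell markers, was at 403 and 423 in control and 75 and 68 in CD70Tg Tconvs. *Klre1*, *Klri2* and *Klra8* were at 0 to 21 in these libraries, so that *Klrb1c* need not reflect NK cells. *Il2ra*, which encodes CD25, was at 23490 and 19497 in control and 14398 and 14659 in CD70Tg Tregs. The part of *Klrb1c* and *Il2ra* in these results was not tested either. *Zbtb46*, a dendritic cell marker, was at 25 and 27 in control and 209 and 191 in CD70Tg Tregs, and *Hbb-bs*, a globin gene of erythroid cells, at 219 and 644 and at 1442 and 936.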

How the data were processed

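RNA of sorted CD4+ T cells was measured in 8 libraries, 2 in each of 4 groups, which were assigned from the labels and the column headings. The authors removed adapters with Trimmomatic 0.36, mapped read pairs to mm10 with STAR 2.5.3, counted reads per gene with HTSeq 0.9.1, and deposited score values, reads per gene scaled to 20 M per library and rounded up. The totals lay between 19963628 and 20164600, so that the original depth is lost; it was estimated from the steps between low values (1.91 to 33.31 M reads), which is less certain in CD70Tg Tconv library 2, where 1 read is worth less than 1, and in control Tconv library 1, where the steps were least clear. The number of read pairs per sample stated in the study's methods was not used. The scaled values are not counts, and no count model was used.

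Low values of 4131 rows with clone-derived names follow the step of another library, and these rows, none of them a member, were dropped. Another 97 names stand on several rows, also none a member. Genes reaching 60 in at least 2 libraries were tested (12816 genes) on log2(value + 5) in R 4.3.3 with limma 3.58.1, with a coefficient per group, a trend in the prior variance and 12.3 prior degrees of freedom. Fold changes on this scale understate those of low genes. P-values were adjusted by the Benjamini-Hochberg method within each of 5 contrasts, and a gene passed at an adjusted p under 0.05. The model assumes the same spread in all libraries, although their depth differs. Positions and exon lengths are from GENCODE M21 (GRCm38), which held 99.6% of the gene identifiers of the table, and sequences before starts from RefSeq. The procedure was tested on simulated data.

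The 38 members, their classes, the 58 other pathway genes, the 39 markers and the tests were chosen with earlier results of these data known. All members are named; values of each library are given for those that passed in a CD70Tg comparison or had one of the 10 largest changes of a comparison, and other pathway genes are named only past an absolute log2 fold change of 1, with 1 exception in the closing section. Alternatives were pseudocounts of 1 and 20, 3 other minimum values, 2 scaling factors, clone-named rows kept, limma-voom on estimated reads, the 4 libraries of a subset alone, stricter thresholds, and each library left out.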

Additional observations from a re-analysis of the deposited data

Results flagged for a closer look

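Among the members and the 58 other genes of the pathway, the CD70Tg responses of the subsets differed for 1 gene, *Lax1*, by a test of the difference itself, which 1.02% of all genes tested passed. *Lax1*, which encodes a transmembrane adaptor that restrains antigen receptor signalling, is not a member and was named after its values were seen. Its values were 1661 and 1547 in control and 2792 and 3594 in CD70Tg Tconvs, and 2087 and 2216 in control and 1630 and 1517 in CD70Tg Tregs. The log2 fold change was 0.98 in Tconvs (SE 0.13, adjusted p = 9.3e-05, limma) and -0.45 in Tregs (SE 0.13, adjusted p = 0.048), and the difference between them was -1.43 (SE 0.19, adjusted p = 0.00087). Both CD70Tg libraries were above both controls in Tconvs and below both in Tregs. The call of the difference was lost without a minimum value (adjusted p = 0.16). That of the fall in Tregs was lost without control Treg library 1 (adjusted p = 0.2) or 2 (0.25), without CD70Tg Treg library 1 (0.13) or 2 (0.22), and under 6 other alternatives (adjusted p from 0.05 to 0.25), while that of the rise in Tconvs was kept in all of these; at 0.98 it does not reach an absolute log2 fold change over 1.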

How the results depend on the processing

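No member's call reversed under any alternative. Without a minimum value, *Prkcq* in Tregs (adjusted p = 0.054) and *Ptpn22* in Tconvs (adjusted p = 0.11) lost their calls. This left 0 members lower in Tregs and 0 higher in Tconvs, against 0.325% and 1.19% of all genes in that fit. Between the subsets, *Cd3g* (0.062), *Sos1* (0.057), *Ptpn22* (0.1), *Cd3e* (0.071) and *Mapk3* (0.071) lost theirs in controls. In CD70Tg mice *Cblb* (0.099) and *Nras* (0.05) lost theirs. Requiring an absolute log2 fold change over 1 gave 0 for both responses by its construction. It left 1 higher and 2 lower in control Tregs, against 14.7% and 4.43% of all genes. In CD70Tg Tregs it left 1 higher and 3 lower, against 12.3% and 4.94%. In the 4 Treg libraries alone, 1 member was higher (*Grap*) and 4 lower (*Prkcq*, *Fyn*, *Rasgrp1* and *Cbl*), against 6.47% and 6.13% of all genes in that fit. Median-of-ratios and upper-quartile factors each gave 1 lower in Tconvs, *Ptpn6*, beside 1 higher. Of all genes, 2.67% and 2.68% were lower in these fits, and 6.95% higher in each. Between the subsets, both ended the call of *Ptprc* in CD70Tg mice (adjusted p = 0.11 and 0.083), and median-of-ratios factors that of *Sos1* in controls (adjusted p = 0.057). In turn median-of-ratios factors added *Zap70*, *Prkcq*, *Csk* and *Vav1* in controls (adjusted p from 0.018 to 0.049) and *Vav1* in CD70Tg mice (0.042), and upper-quartile factors *Zap70* in controls (0.028) and *Grb2* in CD70Tg mice (0.049). With limma-voom on estimated reads, 2 were higher (*Ptpn22* and *Fyn*) and 2 lower (*Ptpn6* and *Cd5*) in Tconvs, against 10.4% and 5.08% of all genes; *Csk* passed in controls (0.031) and *Cblb* did not in CD70Tg mice (0.079). With a pseudocount of 20 the responses differed for 1 member, *Fyn*, lower in Tregs than in Tconvs (adjusted p = 0.047). In that direction 0.960% of all genes were called in that fit. At an adjusted p under 0.01, 9 members were lower and 5 higher in control Tregs, against 11.2% and 20.2% of all genes. In CD70Tg Tregs, 14 were lower and 3 higher than in CD70Tg Tconvs, against 11.9% and 16.2%. The cause of these changes was not tested. With 1 library left out at a time, 0 to 1 members were higher and 0 to 3 lower in CD70Tg Tregs, 0 to 4 higher and 0 to 1 lower in CD70Tg Tconvs, and 0 to 2 lower for the difference. In controls, 4 to 6 were higher and 7 to 16 lower in Tregs, with 9 lower without control Treg library 1 and 7 without control Treg library 2, and in CD70Tg mice 3 to 5 were higher and 13 to 17 lower. A group left with 1 library was assumed to vary like the others. Other scaling moved the median of all genes by at most 0.08. No paired analysis was possible because the columns carry none of the replicate numbers of the sample titles. Depth limits the precision of low members in Tregs, where *Themis* rests on as few as 57 reads, and the median ratio between the 2 libraries of a group was 1.05 to 1.10 over the members.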
